A study of Sus scrofa with 85 samples.

Results

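The comparison described here is blood taken 2 days after myocardial infarction (MI) against blood taken 14 days after it, in swine. Its members are the libraries labelled as whole blood of these days that had a total of at least 1000000 counts and 7 to 60% of their counts in the 10 most counted genes, and 9 of the 12 blood libraries of these days met the rule, out of 85 libraries in the whole series. Day 2 had 4 libraries and day 14 had 5. Blood and micro-endomyocardial biopsies (micro-EMB, taken by catheter from inside the left ventricle) were collected from 3 female mixed-breed farm pigs. In each, a balloon occluded the distal left anterior descending coronary artery before reperfusion. The groups therefore shared the infarction, the reperfusion, the biopsy procedure and repeated anaesthesia, and no animal without infarction was sampled. Swine 5385 gave 2 libraries at each timepoint, swine 1640 gave 1 at day 2 and 2 at day 14, and swine 1644 gave 1 at each. Libraries of one animal are repeated samples of that animal, so a p-value over 9 libraries measures the spread between libraries of only 3 animals.

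Blood RNA is a mixture from red cells, platelets, neutrophils, monocytes and lymphocytes. Neutrophils and monocytes are mobilised within hours to days of an infarct and take part in clearing dead tissue, and lymphocytes act later, during repair. Natural killer (NK) and cytotoxic T cells carry granules with granulysin and granzymes, platelets form the thrombus and release chemokines, and type I interferon drives a common antiviral gene set through interferon-stimulated response elements. In bulk blood, fewer cells of a type and less RNA per cell cannot be told apart.

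The promoters of the interferon-response genes ISG15, a ubiquitin-like protein, ZBP1, a sensor of Z-form nucleic acid, and OAS2, an enzyme that makes the activator of RNase L, are shown because the interferon values below turn on ISG15 and ZBP1, and OAS2 was the most abundant member of that list. Each run is the 250 bases before the annotated gene start in RefSeq's Sscrofa11.1, the build of the deposited counts, in the direction of the gene, with matches on either strand to the motif searched, GAAA, any 2 bases (NN) and again GAAA, in capitals.
ISG15 promoter, chr6:63362951-63363200, + strand: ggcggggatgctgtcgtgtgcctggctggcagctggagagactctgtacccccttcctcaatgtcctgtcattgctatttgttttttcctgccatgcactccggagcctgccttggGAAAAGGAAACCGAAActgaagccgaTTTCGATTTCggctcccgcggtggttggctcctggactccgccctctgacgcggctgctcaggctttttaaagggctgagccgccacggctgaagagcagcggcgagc
ZBP1 promoter, chr17:57986118-57986367, - strand: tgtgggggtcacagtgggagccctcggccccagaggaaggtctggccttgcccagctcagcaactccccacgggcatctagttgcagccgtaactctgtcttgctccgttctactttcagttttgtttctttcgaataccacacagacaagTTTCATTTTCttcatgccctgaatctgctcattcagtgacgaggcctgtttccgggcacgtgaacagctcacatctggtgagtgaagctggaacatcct
OAS2 promoter, chr14:38847698-38847947, - strand: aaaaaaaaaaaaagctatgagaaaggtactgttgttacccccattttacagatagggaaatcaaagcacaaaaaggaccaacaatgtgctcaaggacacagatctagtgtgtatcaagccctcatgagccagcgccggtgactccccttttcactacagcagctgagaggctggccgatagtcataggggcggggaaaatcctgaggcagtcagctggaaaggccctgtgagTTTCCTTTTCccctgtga
ISG15 had 3 matches, which overlap in part, and ZBP1 and OAS2 had 1 match each. The motif was present in 12 of 33 promoters of the interferon list (36.4%) and in 589 of all 19545 protein-coding promoters (3.01%). A match is a string of letters and was not tested for binding.

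The 9 libraries held 3661584 to 11156139 counts assigned to genes, with a median of 7652832. Counting error is part of every value below, and the intervals of low genes rest on few reads. The number of genes with at least 1 CPM (counts scaled to a library total of 1000000) was 17696 ± 2038 (SD, n = 4) at day 2 and 16209 ± 1508 (SD, n = 5) at day 14, and day 2 replicate 1 stood highest with 20646. Neither this number (exact two-sided permutation p = 0.270, adjusted over 5 measures p = 0.675), the total count (p = 0.754), the share of the 10 most counted genes (p = 0.738) nor the mitochondrial share (p = 0.952) differed by an exact permutation test. The share of the 4 haemoglobin genes with a symbol was 0.560 ± 0.0745% at day 2 and 1.01 ± 0.376% at day 14 (exact permutation p = 0.0635, adjusted p = 0.317). This share was nearly all HBB, the beta chain. It was 0.386 to 1.38% over the 9 libraries, where HBB was at 3858 to 13813 CPM of the library total. It is therefore not an observation apart from HBB, and haemoglobin genes without a symbol are not in it. The smallest p that 4 against 5 libraries can give is 0.0079. Library titles were numbered in a 100 and a 200 series. All 4 day 2 libraries and both day 14 libraries of swine 5385 belonged to the 100 series, whereas the 3 day 14 libraries of swine 1640 and 1644 belonged to the 200 series. Series and timepoint therefore cannot be told apart in swine 1640 and 1644.

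The labelled tissue was compared with its defining markers. The most abundant tested genes of the T and B cell lists were LEF1, a transcription factor of T cells, and EBF1, a B cell transcription factor. LEF1 was at 470 to 1415 CPM of the library total and EBF1 at 415 to 1247 CPM. Other lymphocyte genes were lower: CD3D of T cells at 47.4 to 96.7 CPM, and CD79B and MS4A1 of B cells at 42.7 to 97.9 and 22.8 to 111.6 CPM. CPM are not scaled to gene length. HBB, the beta chain of haemoglobin, was at 3858 to 13813 CPM. Of the neutrophil genes, CSF3R, the granulocyte colony-stimulating factor receptor, was at 210 to 450 CPM and ARG1, arginase, at 101.3 to 211.6 CPM. However, S100A8, among the most abundant transcripts of mature neutrophils, was at 0 to 5.44 CPM and S100A12 at 0.435 to 7.04 CPM, and the granule genes LCN2, CD177, ELANE and PRTN3 were listed at 0 in all 9 libraries. Several genes that blood cells use widely, such as CD79A, ALAS2, PRF1 and LYZ, were also listed at 0 in all 9 libraries, so a 0 in these counts is not read as absence.

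No gene was called different between day 2 and day 14. With timepoint as the only term in edgeR's quasi-likelihood test, 0 of 19943 genes tested (0%) had an adjusted p of 0.05 or less in either direction, and the smallest adjusted p was 0.780. At an unadjusted p under 0.05, 1127 genes (5.65%) were found where 997 are expected by chance, 724 (3.63%) lower and 403 (2.02%) higher at day 2. Counts of list members at this p, given below, are to be read against these shares. DESeq2 called 1 gene without a symbol and limma-voom called 0, with 1419 genes at an unadjusted p under 0.05. The split between lower and higher genes depended on the scaling: with library totals alone it was 350 lower and 592 higher, and with RLE factors 570 and 555. That count also rested on single libraries, since 1.91% of genes were lower and 0.719% higher without day 2 replicate 1, and 3.11% lower and 10.3% higher without day 14 replicate 5. The median log2 difference (day 2 minus day 14) over all genes was 0.05, and it moved to 0.11 with RLE factors, 0.12 with upper-quartile factors and 0.23 with library totals. Within animals the median difference in mean log2 CPM over all genes was -0.14 in swine 1640, 0.01 in swine 1644 and 0.17 in swine 5385. List medians within an animal are to be read against these values. The biological coefficient of variation was 0.505. All differences below are given with their standard error (SE) on the log2 scale as day 2 minus day 14, none passed the test over 9 libraries, and each named gene had an adjusted p of 0.780 (edgeR) unless another value is given.

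The 5 genes with a symbol and the smallest p that were lower at day 2 were NKG7, HLA-DRA, TUBB1, TES and BNIP3L. NKG7, a granule membrane protein of NK and cytotoxic T cells, was at 6.26, 4.13, 7.26 and 13.5 CPM at day 2 and at 10.5, 23.9, 37.8, 33.8 and 32.0 CPM at day 14. Only the lower day 14 library of swine 5385 fell inside the range of day 2, and the log2 difference was -1.83 ± 0.41. HLA-DRA, the pig alpha chain of the class II molecule SLA-DR, was at 54.1, 55.8, 63.1 and 99.5 CPM at day 2 against 95.9, 118.7, 174, 160 and 167.2 CPM at day 14 (-1.07 ± 0.25). The groups overlapped only through 2 libraries of swine 5385. BNIP3L, which removes mitochondria from maturing red cells, was at 115.8 to 220 CPM at day 2 and 294 to 395 CPM at day 14 (-0.96 ± 0.23), so its groups did not overlap. TES, testin, a protein of focal adhesions, was at 25.2 to 50.8 against 48.8 to 87.7 CPM (-1.09 ± 0.26). Over all genes tested, every day 2 library lay below every day 14 library in 0.888% and above in 0.567%. Genes said below not to overlap are to be read against these shares.

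**Figure D1:**
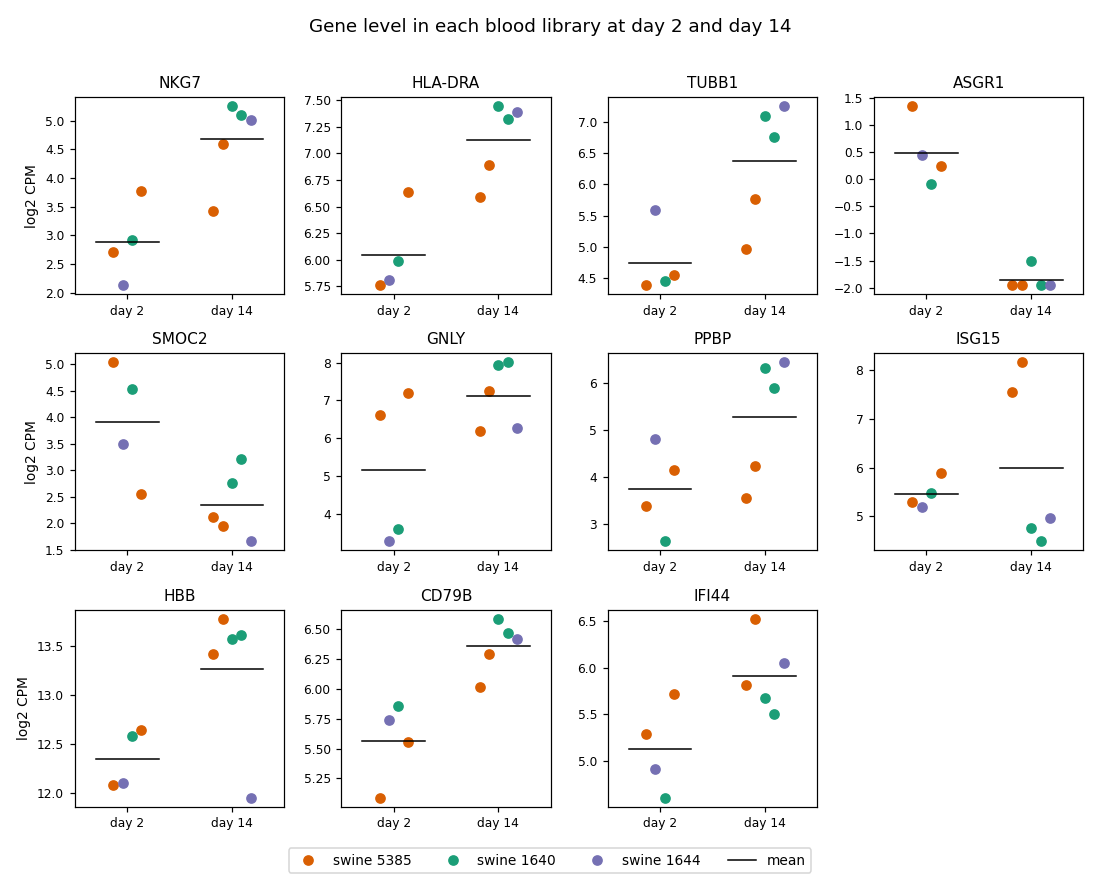
Log2 CPM (prior count 2) of genes named in the text, in each blood library at day 2 (4 points) and day 14 (5 points), coloured by swine, with the group mean as a line. In GNLY and PPBP the libraries of swine 1640 and 1644 are lower at day 2 than at day 14 while those of swine 5385 lie close together, and in ISG15 the 2 day 14 libraries of swine 5385 stand above all others.

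Platelet genes were lower on average at day 2, in swine 1640 and 1644. Of 9 platelet genes tested, 9 had a lower mean at day 2, where 46.6% of all genes tested did, and their median log2 difference was -1.09 against 0.05 for all genes. With an unadjusted p under 0.05 there were 4 lower and 0 higher, namely TUBB1, PPBP, TREML1 and ITGB3. TUBB1, the beta-tubulin of the platelet's marginal band, was at 20.6, 47.9, 21.6 and 23.0 CPM at day 2 and at 31.0, 54.1, 138, 108.55 and 152.97 CPM at day 14 (-1.78 ± 0.42). The 3 high libraries were those of swine 1640 and 1644, whereas both day 14 libraries of swine 5385 were within or near the range of day 2. PPBP, the precursor of the chemokine CXCL7 of platelet granules, was at 10.1, 27.4, 5.90 and 17.5 CPM at day 2 and at 11.4, 18.4, 79.3, 58.6 and 85.9 CPM at day 14 (-1.74 ± 0.55). Again swine 5385 showed day 14 levels inside the day 2 range. ITGB3, the beta chain of the fibrinogen receptor, differed by -2.34 in swine 1640 and -1.69 in swine 1644 but by 0.78 in swine 5385. TREML1, a receptor of platelet granules, differed by -1.73 ± 0.64 over the 9 libraries. The summed level of the list was 59.0 to 134.002 CPM at day 2 and 64.2 to 382 CPM at day 14, and GP1BB and CLEC1B were listed at 0. Within animals the list median was -1.95 in swine 1640, -1.64 in swine 1644 and -0.11 in swine 5385. In swine 1640 and 1644 the title series coincides with timepoint. With only the 100 series in the fit the list median was 0.11, with 4 of 9 lower. With the series as a term it was 0.03, also with 4 of 9 lower. Swine 5385 was the only animal with day 14 libraries in the 100 series. Both fits therefore compare day 2 with its day 14 libraries alone and cannot separate series from animal. In the only kept baseline library, of swine 1644, TUBB1 was at 174.9 CPM and PPBP at 110.8 CPM of the library total. On the same scale, in the 2 kept libraries of 1–3 h, TUBB1 was at 36.4 and 43.3 CPM and PPBP at 19.2 and 20.6 CPM. These are single libraries, all of the 200 title series, shown as values without a test.

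NK and cytotoxic genes had lower means at day 2 in 12 of 13 genes tested, with a median of -0.69. An unadjusted p under 0.05 was reached by 3 lower genes and 0 higher ones. These were NKG7, TBX21, the transcription factor T-bet of cytotoxic and Th1 cells (-0.99 ± 0.28), and CCL5, a chemokine of activated cytotoxic cells (-1.33 ± 0.41). GNLY, granulysin, a pore-forming granule protein, was at 97.3, 9.51, 12.03 and 145.6 CPM at day 2 and at 72.8, 151.3, 242, 256 and 77.7 CPM at day 14 (-1.27 ± 0.65). The 2 low libraries at day 2 were those of swine 1644 and 1640, whereas in swine 5385 both timepoints covered the same range. KLRD1, the CD94 chain of NK receptors, was at 15.1, 0.689, 0.227 and 24.1 CPM at day 2 and at 11.4, 21.0, 28.2, 20.5 and 9.05 CPM at day 14, with the same 2 libraries low, on 5 counts and 1 count (-0.83 ± 0.78, adjusted p = 0.795). KLRK1, the receptor NKG2D, differed by -1.89 ± 0.99 and rested on at most 7.36 CPM. The exception was a copy of GZMA, granzyme A, at 1.14 ± 0.60 (adjusted p = 0.780), whose other copy, under an identifier of its own, was at -0.69 ± 0.51 (adjusted p = 0.782), and the 2 copies may share reads. Within animals the list median was -0.79 in swine 1640, -1.63 in swine 1644 and 0.18 in swine 5385. All genes tested had medians of -0.14, 0.01 and 0.17 in these animals. The list median was -0.23 without swine 1640 and -0.45 without day 2 replicate 2. A test of whether the difference between days varied between swine gave the smallest p for GNLY among these genes, with an adjusted p of 0.426 by edgeR; for KLRD1 it was 0.832, and over all genes 0 of 19943 (0%) were called, with a smallest adjusted p of 0.121 and 534 genes (2.68%) at an unadjusted p under 0.05. In the other kept blood libraries GNLY was at 23.4 CPM of the library total at baseline and at 3.98 and 19.5 CPM of the library total at 1–3 h.

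**Figure D2:**
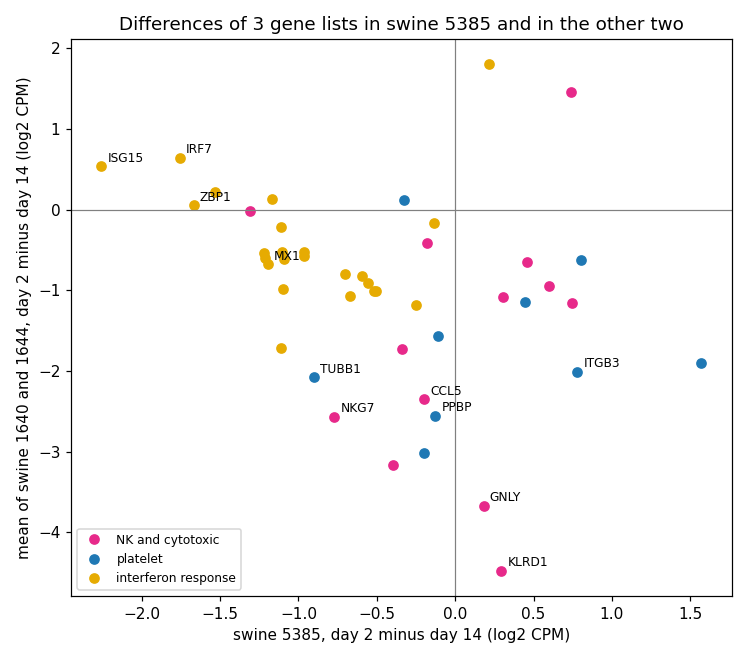
Difference in mean log2 CPM between day 2 and day 14 in swine 5385 (horizontal) and as the mean of swine 1640 and 1644 (vertical), for the tested genes of the NK and cytotoxic (13), platelet (9) and interferon response (24) lists. ISG15 lies at -2.26 in swine 5385 and above 0 in the other animals, whereas GNLY and KLRD1 lie near 0 in swine 5385 and far below 0 in the others.

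T cell genes showed smaller differences. Of 17 tested, 14 had a lower mean at day 2, the median was -0.22, and 2 lower and 0 higher genes had an unadjusted p under 0.05. Without day 2 replicate 1, 9 of 17 were lower and the median was -0.02, without day 14 replicate 2 it was -0.10, and without swine 5385 8 of 17 were lower with a median of 0.02. CD8A, the co-receptor of cytotoxic T cells, was at 51.4, 59.0, 63.3 and 74.5 CPM at day 2 and at 83.1, 78.4, 126, 128.5 and 117.5 CPM at day 14 (-0.79 ± 0.22). CD8A and CD8B, its partner chain, were the 2 of 17 genes that did not overlap between days. Over all genes tested, 0.888% were lower at day 2 without overlap. CD3D, a chain of the T cell receptor complex, differed by -0.68 ± 0.22. The abundant transcription factors LEF1 (0.17 ± 0.33, adjusted p = 0.902) and BCL11B (-2.6e-04 ± 0.34, adjusted p = 1.00) had means close to each other.

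Genes of the major histocompatibility complex (MHC) class II had lower means at day 2 in 8 of 8 genes tested, with a median of -0.67, and 5 lower and 0 higher genes had an unadjusted p under 0.05. This count was 2 without day 14 replicate 6 and 3 without day 14 replicate 4 or day 2 replicate 1, 2 or 4. CD74, the invariant chain that guides class II molecules, was at 537, 741, 730 and 897 CPM at day 2 and at 908, 1257, 1077, 1035 and 1086 CPM at day 14 (-0.56 ± 0.23), without overlap. SLA-DMA and SLA-DMB, which load peptides onto class II molecules, differed by -0.82 ± 0.25 and -0.67 ± 0.26. CIITA, the transactivator of class II genes, had means close to each other (-0.08 ± 0.27, adjusted p = 0.942). This list had a negative median in each animal, at -1.10 in swine 1640, -0.74 in swine 1644 and -0.52 in swine 5385. Its summed level was 1014 to 1308 CPM at day 2 and 1269 to 1659 CPM at day 14.

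B cells present antigen on class II molecules, and 9 of 10 B cell genes tested had a lower mean at day 2 (median -0.27), with 2 lower and 0 higher genes at an unadjusted p under 0.05. Without day 2 replicate 1, 5 of 10 were lower and the median was -0.05, and without day 14 replicate 6 it was -0.10. With only the 100 title series, whose day 14 libraries are those of swine 5385 alone, 4 of 10 were lower with a median of 0.11. CD79B, a signalling chain of the B cell receptor, was at 33.8, 53.3, 57.9 and 46.8 CPM at day 2 and at 64.3, 78.4, 96.1, 88.4 and 85.3 CPM at day 14 (-0.79 ± 0.22), without overlap and at -0.67, -0.68 and -0.83 in the 3 animals. MS4A1, CD20, was at 18.1 to 47.8 CPM at day 2 and at 29.2, 30.9, 95.5, 90.6 and 114.2 CPM at day 14 (-1.21 ± 0.41), with both low day 14 values in swine 5385. EBF1 (-0.18 ± 0.32, adjusted p = 0.886) and PAX5 (0.01 ± 0.27, adjusted p = 0.990), which specify the B lineage, were close between days. Plasma cell genes had a median of 0.19, with 2 of 7 lower at day 2 and 0 at an unadjusted p under 0.05 in either direction, but without day 2 replicate 4 the median was -0.14, with 5 of 7 lower. JCHAIN, which joins antibody chains into polymers, differed by 0.19 ± 0.33 (adjusted p = 0.883) and IRF4, a transcription factor of plasma cells, by 0.26 ± 0.37 (adjusted p = 0.865).

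Erythroid genes had lower means at day 2 in 17 of 19 genes tested, with a median of -0.46, and 6 lower and 0 higher genes had an unadjusted p under 0.05 (FECH, TRIM58, DMTN, HBB, SLC4A1 and CA2). This count was 2 without day 2 replicate 1 or 2 and 3 without day 14 replicate 2. FECH, which inserts iron into haem, was at 92.8 to 188 CPM at day 2 and at 193 to 373 CPM at day 14 (-0.93 ± 0.25). FECH, TRIM58 and DMTN, 3 of the 19 genes, did not overlap between days, against 0.888% of all genes tested. HBB was at 4315, 4379, 6106 and 6404 CPM at day 2 and at 10911, 14050, 12164, 12478 and 3951 CPM at day 14 (-1.01 ± 0.42). The day 14 library of swine 1644 was below all 4 day 2 libraries, so swine 1644 differed by 0.15 while swine 1640 and 5385 differed by -1.01 and -1.24. Reads of closely related beta-globin genes may be shared with HBB. The list median was negative in each animal (-0.23 in swine 1640, -0.40 in swine 1644 and -0.56 in swine 5385). The medians of all genes tested were -0.14, 0.01 and 0.17 in the same animals.

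**Figure D3:**
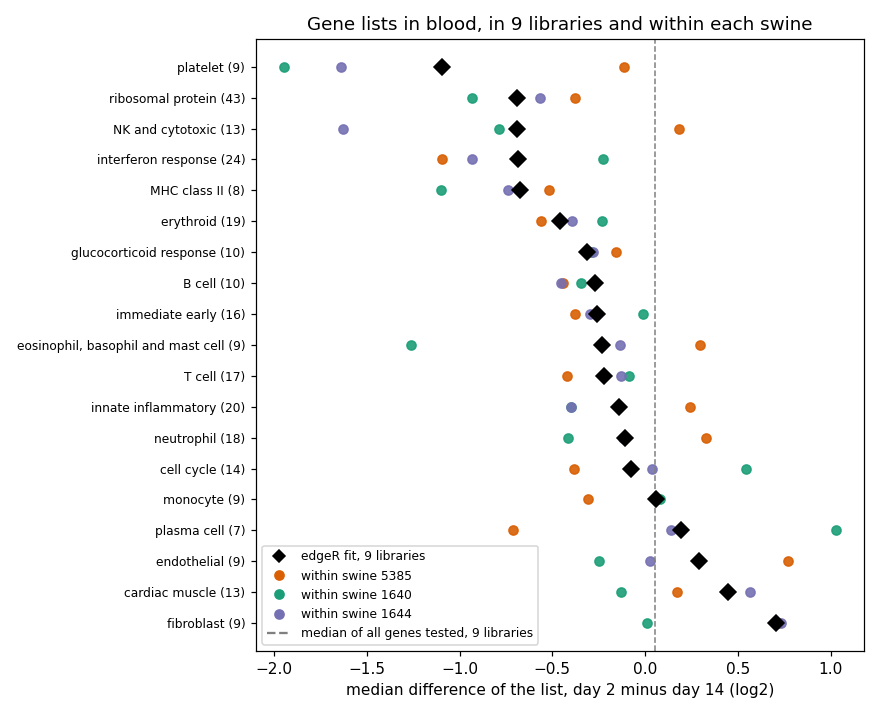
Median log2 difference, day 2 minus day 14, of each gene list (number of genes tested in brackets) over the 9 libraries (diamonds) and within each swine (circles), with the median of all genes tested (0.05) as a dashed line. That line is for the 9 libraries, and within swine 1640, 1644 and 5385 all genes had medians of -0.14, 0.01 and 0.17. Platelet genes have the lowest median, -1.09, and their value within swine 5385 (-0.11) stands apart from those within swine 1640 (-1.95) and swine 1644 (-1.64), and the highest median is that of the fibroblast list, 0.71.

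Interferon-response genes had lower means at day 2 in 23 of 24 genes tested, with a median of -0.69, and 10 lower and 0 higher genes had an unadjusted p under 0.05. This count rested on single libraries: it was 2 without day 2 replicate 4, 3 without day 2 replicate 2, 5 without day 14 replicate 2, 6 without day 2 replicate 1 or day 14 replicate 1 or 6, and 19 without day 14 replicate 5. It was 0 without swine 1644 and 20 without swine 1640. In contrast to the platelet and NK lists, the median was -1.09 in swine 5385 and -0.93 in swine 1644 but -0.23 in swine 1640, where 14 of the 24 were lower. All genes tested had a median of -0.14 in swine 1640. MX1, a GTPase that blocks virus replication, differed by -0.87 ± 0.40, and IFI44, an interferon-induced protein, by -0.77 ± 0.28. The most abundant members were OAS2 (-0.46 ± 0.32) and HERC6, a ubiquitin ligase (-0.67 ± 0.31). ISG15, whose promoter with 3 motif matches is printed above, was at 39.2, 36.2, 44.5 and 58.7 CPM at day 2 and at 186.9, 285, 26.9, 22.2 and 31.1 CPM at day 14 (-1.30 ± 0.64). Both high libraries were those of swine 5385 at day 14, and the 3 day 14 libraries of the other animals lay below every day 2 library. ZBP1 was at 246 and 327 CPM in swine 5385 at day 14 and at 36.3 to 112.96 CPM in the other 7 libraries (-0.95 ± 0.52). IRF7, which amplifies interferon production, was at 201.8 and 246 CPM in these 2 libraries and at 47.9 to 105.7 CPM in the others (-0.55 ± 0.43, adjusted p = 0.784). The summed level of the list was 2305 to 3690 CPM at day 2 and 2677 to 5875 CPM at day 14, and IFIT1, IFIT2, OAS1 and CXCL10 were listed at 0.

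The neighbours of ISG15 on chromosome 6 followed the same libraries. HES4, a transcriptional repressor of the Notch pathway (chr6:63351593-63356690), was at 41.8 and 66.9 CPM in swine 5385 at day 14, at 1.48 to 2.41 CPM in the other day 14 libraries and at 3.58 to 11.06 CPM at day 2. AGRN, agrin, a matrix proteoglycan (chr6:63366017-63398311), was at 35.1 and 58.9 CPM in swine 5385 at day 14, at 5.26 to 10.3 CPM in the other day 14 libraries and at 7.58 to 14.5 CPM at day 2. ISG15 (chr6:63363201-63364211) ends 1805 bases from the start of AGRN and begins 6510 bases from the end of HES4 on that annotation. It lies on the + strand, so reads running past its end go toward AGRN and away from HES4. Counting was without strand, so reads running past a gene's end into a neighbour cannot be told apart from those of that neighbour. The part of such reads was not tested. A test of whether the difference varied between swine gave an adjusted p of 0.885 for ISG15 (edgeR). The 2 libraries of each timepoint of swine 5385 belonged to the same 100 title series; with only this series in the fit, ISG15 was the 1 gene called, and the same held with the series as a term. In both fits the day 14 libraries of the series come from 1 animal, so the call describes the 2 libraries of swine 5385 and is no test over animals.

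Genes of ribosomal proteins were a list added after the data were seen and are described without a test. All 43 had a lower mean at day 2, with a median of -0.69 and values between -1.30 and -0.30. RPS15A, a small-subunit protein, was at 62.2, 71.6, 101.01 and 96.7 CPM at day 2 and at 80.7, 160, 277, 294 and 207.1 CPM at day 14. The share of all counts in these genes was 1.04 to 1.23% at day 2 and 1.13 to 2.08% at day 14, highest in the 2 day 14 libraries of swine 1640. The list median was -0.93 in swine 1640, -0.57 in swine 1644 and -0.38 in swine 5385. Such genes have many processed copies in the genome, so their reads can be split among them.

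Neutrophil, monocyte and innate inflammatory genes had members in both directions, and each of these medians turned sign without day 14 replicate 5. Of 18 neutrophil genes tested, 10 were lower at day 2 (median -0.11), and 1 was higher with an unadjusted p under 0.05, AZU1, azurocidin, with 34, 10, 3 and 4 counts at day 2 and 0, 0, 0, 1 and 6 at day 14. CSF3R differed by -0.06 ± 0.30 (adjusted p = 0.961) and ARG1 by -0.43 ± 0.26, and S100A8 rested on 0 to 51 counts per library. Of 9 monocyte genes tested, 4 were lower (median 0.06) and 2 had an unadjusted p under 0.05, CX3CR1, the fractalkine receptor that NK cells carry as well (-1.06 ± 0.46), and CTSS, cathepsin S (-0.49 ± 0.21). VCAN, versican, and CSF1R, the receptor of macrophage colony-stimulating factor, differed by -0.19 ± 0.21 (adjusted p = 0.815) and 0.06 ± 0.33 (adjusted p = 0.965). Of 20 innate inflammatory genes tested, 13 were lower (median -0.14) and 0 reached an unadjusted p under 0.05 in either direction. HIF1A, the hypoxia-inducible factor, differed by -0.44 ± 0.22 and NLRP3, the inflammasome sensor, by -0.02 ± 0.20 (adjusted p = 0.982). CXCL8, the main neutrophil chemokine, was too low to be tested, and IL1B was not analysed here. Immediate early genes had lower means in 16 of 16 genes tested, with a median of -0.26 and 0 at an unadjusted p under 0.05; the most abundant were ZFP36 (-0.27 ± 0.28, adjusted p = 0.814) and KLF6 (-0.22 ± 0.22, adjusted p = 0.804). With library totals, and likewise without swine 5385, 10 of these 16 were lower. The medians of the neutrophil and innate inflammatory lists turned positive with library totals (0.07 and 0.01).

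Eosinophil, basophil and mast cell genes had 5 of 9 lower at day 2 (median -0.23, which was -0.43 without day 2 replicate 1 and near 0 without day 14 replicate 5), and 2 lower genes reached an unadjusted p under 0.05, GATA2, a transcription factor of basophils and mast cells (-1.27 ± 0.49), and MS4A2, a chain of the IgE receptor (-0.90 ± 0.33). CCR3, the eotaxin receptor, differed by -0.30 ± 0.24 (adjusted p = 0.785) and KIT, the stem cell factor receptor, by 0.06 ± 0.23 (adjusted p = 0.946). Glucocorticoid-response genes had 8 of 10 lower (median -0.32), with 2 lower genes at an unadjusted p under 0.05, ANXA1, annexin A1 (-0.79 ± 0.26), and FKBP5, a co-chaperone of the glucocorticoid receptor (-0.47 ± 0.22). ZBTB16, a further target of the receptor, differed by 0.06 ± 0.26 (adjusted p = 0.958) and SGK1, a kinase, by -0.34 ± 0.28 (adjusted p = 0.785). Cell cycle genes had 8 of 14 lower (median -0.08, which was 0.09 with library totals), with 0 at an unadjusted p under 0.05. Without day 2 replicate 1, 3 of 14 were lower, and without day 2 replicate 4, 13 of 14. CENPF, a centromere protein, differed by -0.21 ± 0.23 (adjusted p = 0.817) and KIF11, a spindle motor, by -0.46 ± 0.29.

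Genes of cells that are not expected in blood had positive medians over the 9 libraries. Of 9 fibroblast genes tested, 0 were lower at day 2 (median 0.71), of 9 endothelial genes 3 (median 0.29) and of 13 cardiac muscle genes 4 (median 0.44). Without day 2 replicate 1 these medians were 0.29 (fibroblast), -0.0040 (endothelial, 5 of 9 lower) and 0.07 (cardiac muscle), and without swine 5385 they were 0.47, -0.02 and 0.12. Within swine 1640 the cardiac and endothelial medians were -0.13 and -0.25, where all genes tested had a median of -0.14. TNC, tenascin C, a matrix protein, was the 1 fibroblast gene with an unadjusted p under 0.05 (0.71 ± 0.31), and FN1, fibronectin, differed by 0.32 ± 0.28 (adjusted p = 0.788). Of the cardiac muscle genes, RYR2, the calcium release channel, differed by 0.58 ± 0.47 (adjusted p = 0.785), MYH6, a myosin heavy chain, by 0.24 ± 0.29 (adjusted p = 0.838), and TPM1, a tropomyosin that platelets also contain, by -0.90 ± 0.29, the 1 gene lower with an unadjusted p under 0.05. Of the endothelial genes, ERG, a transcription factor, differed by 0.66 ± 0.43 and PLVAP, a protein of fenestrae, by -0.63 ± 0.30. The summed fibroblast level was 63.9 to 190 CPM at day 2 and 47.7 to 94.0 CPM at day 14. On the scale of the library total, RYR2 was at 281.5 to 516.3 CPM in 10 blood libraries outside the rule, described below. In the 9 libraries compared it was at 9.57 to 174.98 CPM. In the same order, ERG was at 167.05 to 295.7 and 7.68 to 121.1 CPM. TNC was at 56.8 to 99.2 and 9.57 to 51.6 CPM, and MYH6 at 55.8 to 92.9 and 18.1 to 45.1 CPM. The ranges of FN1, TPM1 and PLVAP overlapped, and those of TPM1 and PLVAP reached higher in the 9. The part of the profile of these 10 libraries in the positive medians was not tested.

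The genes with a symbol and the smallest p that were higher at day 2 included ASGR1, SMOC2, OR6S1 and RPL10L. ASGR1, the asialoglycoprotein receptor of hepatocytes, had 29, 8, 3 and 7 counts at day 2 and 0, 0, 1, 0 and 0 at day 14. OR6S1, an olfactory receptor, had 18, 14, 3 and 2 counts at day 2 and 0, 0, 1, 0 and 0 at day 14. RPL10L, a copy of a ribosomal protein gene that can share reads with its parent gene, had 16, 3, 5 and 4 counts at day 2 and 0 in every day 14 library. These 3 genes rest on so few reads that no fold is given. SMOC2, a matrix protein, was at 32.6, 11.02, 22.9 and 5.59 CPM at day 2 and at 4.09, 3.61, 6.55, 9.06 and 2.90 CPM at day 14 (1.76 ± 0.49). The highest value was that of day 2 replicate 1, the library with the most genes detected.

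Genes that were higher at day 2 most often had their maximum in that library. Of the 403 genes higher with an unadjusted p under 0.05, 273 had their maximum in day 2 replicate 1, 51 in replicate 2, 68 in replicate 4 and 11 in replicate 6. These genes were chosen for high values at day 2, so that their maximum lay at day 2 follows from the choice. The same count over all genes tested was not made, so the share of replicate 1 has no background here. Their median mean level was 2.95 CPM, against 50.9 CPM for the 724 lower genes and 9.85 CPM for all genes tested, and 50.4% of them had a symbol, against 83.7% and 66.1%. A further 10 blood libraries of the series, of all timepoints, had an even count profile, with 1.30 to 5.36% of counts in the 10 most counted genes and 21534 to 23088 genes detected, and were outside the rule. In them the higher genes had a median mean level of 20.6 CPM, the lower genes 21.5 CPM and all genes 21.0 CPM. On the scale of the library total, SMOC2 was at 42.2 to 150 CPM in these 10 and at 2.82 to 41.2 CPM in the 9 libraries compared. The part of an even profile in the higher genes was not tested. Without the 2 libraries with the most genes detected, day 2 replicate 1 and day 14 replicate 5, 0 genes were called by edgeR, with 399 lower and 414 higher at an unadjusted p under 0.05.

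**Figure D4:**
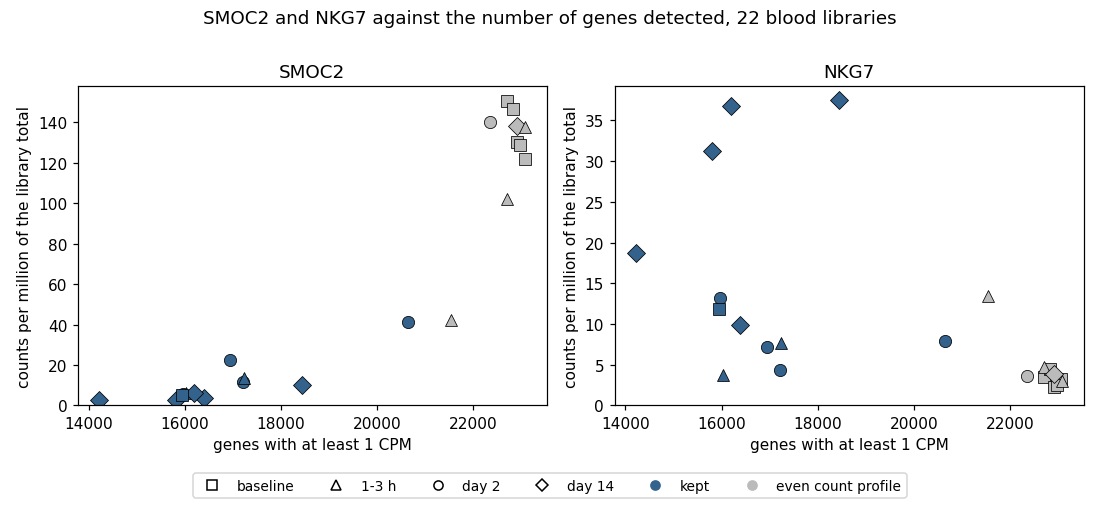
Level of SMOC2 (left) and NKG7 (right), in CPM of the library total, against the number of genes with at least 1 CPM in 22 blood libraries of all timepoints; symbols mark the timepoint, blue the libraries that pass the rule and grey those with an even count profile. The grey libraries detect 21534 to 23088 genes and have the highest SMOC2 levels (42.2 to 150), and day 2 replicate 1 (20646 genes) lies next to them with 41.2.

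The count of called genes depended on swine 5385. Without its 4 libraries, 5 libraries of 2 animals remained, and 174 of 20413 genes tested (0.852%) were called by edgeR, 0.754% lower and 0.098% higher at day 2. Of the called genes, 20 were members of the lists other than that of ribosomal proteins, of which a further 10 of 43 were called, all lower. The 20 were NK and cytotoxic genes in 6 of 13 tested, among them GNLY (-4.17, adjusted p = 1.34e-04), KLRD1 (-5.23) and NKG7 (-2.63), and platelet genes in 4 of 9, TUBB1 (-1.92), PPBP (-2.12), ITGB3 (-1.81) and TREML1 (-3.30). Of the MHC class II list 1 of 8 was called, HLA-DRA (-1.49), and of the interferon list 1 of 24, IFI44L (-1.12). Also called lower were the T cell genes CD8A (-1.02) and TRAT1 (-1.24), the B cell gene MS4A1 (-1.40), MS4A2 (-1.46), CX3CR1 (-2.78), ANXA1 (-1.16) and MMP9, a gelatinase of neutrophil granules (-1.91). IRF4 was the list member called higher (1.21). Of the lower genes, 74.0% had a lower mean at day 2 in swine 5385 as well. Their median difference in mean log2 CPM there was -0.21. In the other animals their median by edgeR was -1.33, but the genes were chosen by their calls in those animals. The medians are also of unlike measures, so they do not show a weaker difference in swine 5385. Of the 20 higher genes 2 were higher in swine 5385. The median over all genes tested in the 9 libraries was 0.17 in swine 5385. With a CPM of at least 1 required in at least 2 of the 5 libraries, 0.588% of 18024 genes were called. In these 5 libraries each timepoint coincides with a title series, so these calls cannot be told apart from a difference between the series, and the test of a difference between swine called 0 genes.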

How the data were processed

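Total RNA of whole blood was extracted with a modified RNAdvance Tissue protocol and made into SMARTer Pico libraries. The authors aligned reads to Sscrofa11.1 with STAR and deposited raw counts per Ensembl gene from featureCounts, whose column names mark counting without strand. Versions were not given in the sources used here, and no molecular identifiers separated duplicate reads. Symbols were matched to 15029 of 31907 gene identifiers through RefSeq. The extraction batches, which the methods describe as randomised, are not in the labels.

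Libraries were grouped by the timepoint label. Genes with at least 1 CPM in at least 20% of the 9 libraries (2 libraries) were tested with edgeR 4.0.16 in R 4.3.3, with TMM factors, the quasi-likelihood test, timepoint as the only term and Benjamini-Hochberg adjustment, with a threshold of 0.05. CPM in the text are TMM-scaled unless given per library total, and log2 CPM used a prior count of 2. The SE of a difference was taken as its absolute size divided by the square root of the F statistic of the quasi-likelihood test. Differences within a swine are those of mean log2 CPM. Promoters were read from the RefSeq genome. Library measures were compared with exact permutation tests. The code was tested on simulated data. Named genes were the 5 with the smallest p in each direction, the 2 most abundant tested members of each list, ZBTB16, CXCL8, HLA-DRA and CD74, and genes stated in the text beyond these were chosen after their values were seen; results of some genes that the rule or lists name are not reported here. The members, the gene lists and the tests were chosen with earlier results of these data known. DESeq2 1.42.0, limma 3.58.1, other factors, filters, and left-out libraries and animals were the alternatives.

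Same-numbered swine are the same animal, so swine pairs the libraries. The mean correlation of deviations from the group means was -0.01 over 7 pairs of the same swine at different timepoints. It was -0.08 over all 10 pairs of the same swine and -0.14 over 26 pairs of different swine. Subtracting a group mean by itself lowers the correlation of libraries within that group. The values over 10 and 26 pairs include such pairs and are therefore no measure of pairing. No 2 libraries agreed within sampling noise. Depth was 3661584 to 11156139 counts, and intervals were not computed for single counts.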

Additional observations from a re-analysis of the deposited data

Results flagged for a closer look

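In 32 groups of 4 or 5 libraries examined, 4 had a value farther from the others than Dixon's limit, and chance gives about 1 in 20. TUBB1 was at 5.591 log2 CPM in day 2 replicate 2, of swine 1644, above the other 3 day 2 libraries. ASGR1 was at -1.5123 log2 CPM in day 14 replicate 4, where 1 count was found and the other day 14 libraries had 0. HBB was at 11.948 log2 CPM in day 14 replicate 6, of swine 1644, below the other 4. The mitochondrial share was 0.52675% in day 14 replicate 2, of swine 5385, below the other 4.

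For 2 of the genes with values per library, all libraries of one animal moved opposite to those of another. ISG15 differed between day 2 and day 14 by 0.8596 in swine 1640, 0.2176 in swine 1644 and -2.259 in swine 5385. The test of whether the difference varied between swine gave an adjusted p of 0.885 (edgeR). HBB differed by -1.013 in swine 1640, 0.1486 in swine 1644 and -1.236 in swine 5385, and the same test gave an adjusted p of 0.993.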

How the results depend on the processing

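Called genes are given here in percent of the genes tested, and list members without ribosomal protein genes. The share called stayed at 0 with limma-voom, other scalings and filters, each library left out in turn (lowest 0, highest 0), swine 1640 or 1644 left out, and the all-blood fits. It was 0.00501% (all lower, a single gene) with DESeq2, and 0.00527% (1 gene, lower, and 1 list member) with the 100 title series only and 0.00501% (1 gene, lower, and 1 list member) with the series as a term, where day 14 of that series is 1 animal. Without swine 5385 it was 0.852% (174 genes), with 0.754% lower, 0.098% higher and 20 list members, and 0.588% (0.555% lower, 0.0333% higher, 14 list members) with the stricter filter added after seeing the data. With swine as a replicate block, 0 genes were called (508 lower and 472 higher at an unadjusted p under 0.05), also when counts were summed per swine. Without swine 5385, the replicate block gave 2.05% (1.73% lower, 0.318% higher, 27 list members) from 5 libraries; the block changed no other call. The share of the 10 most counted genes reversed to 1.0042 as a mean per swine.

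A difference smaller than its SE was given no direction, which 17 of 77 named genes had; 73.5% of the sign changes among 2355 values under 31 settings were theirs. Among the others, signs turned without swine 5385, with the block added, and with the stricter filter, respectively, for ARG1 (0.0203, 0.0195, 0.031), OAS2 (0.21, 0.19, 0.22), FN1 (-0.11, -0.15, -0.11), ISG15 (0.59, 0.59, 0.60), IRF7 (0.73, 0.70, 0.74), HES4 (1.44, 1.45, 1.45), AGRN (0.29, 0.29, 0.30) and ZBP1 (0.13, 0.12, 0.14), and without the block for RYR2 (-0.13, -0.13) and ERG (-0.0225, -0.0198). With the 100 series only and as a term, they turned for CCR3 (0.12, 0.0599), PPBP (0.11, 0.0254), MS4A1 (0.13, 0.0567), ITGB3 (1.06, 0.98), LGALSL (0.12, 0.0457) and SGK1 (0.40, 0.32; 0.20 without swine 1640). HES4 was 0.73 with limma-voom and 0.0249 summed per swine with the block, and RYR2 ranged from -0.0288 (without day 2 replicate 1) to 0.89 (without day 14 replicate 5) with each library left out in turn. The cause was not tested. List medians turned without swine 5385 for T cells (0.02), neutrophils (0.04), cell cycle (0.38) and endothelium (-0.02). They turned with the 100 series only, and with the series as a term, for platelets (0.11, 0.03), B cells (0.11, 0.03), eosinophils and basophils (0.12, 0.06), innate inflammatory genes (0.33, 0.27), neutrophils (0.59, 0.63), monocytes (-0.21, -0.26) and plasma cells (-0.14, -0.22), and with the 100 series only for glucocorticoid response (0.02). In both fits the day 14 libraries of the 100 series come from swine 5385 alone, so series and animal cannot be told apart. Medians of NK, MHC class II, erythroid, interferon, immediate early, cardiac muscle and fibroblast genes kept their sign under all 31 settings, as did that of ribosomal protein genes except where these were left out of the fit.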
